A study of Rattus norvegicus with 6 samples.

Results

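The cytosolic ribosomal protein genes of the rat amygdala were examined 1 h after an acute injection of ethanol. Members were taken by symbol alone, as genes named Rpl, Rplp, Rps or Rpsa with a number or letter suffix, leaving out rows named as pseudogenes or numbered copies. The rule gave 78 of the 38445 genes in the count files, 46 of the large subunit and 32 of the small subunit. Control libraries came from adult male Sprague Dawley rats injected with saline, and ethanol libraries from rats of the same sex and strain injected intraperitoneally with 1 g/kg ethanol. Every rat was wild type, and 6 rats were used in each group. RNA of 2 rats was pooled per library, which left 3 libraries in each group and no measure of single animals. The libraries were strand-specific and poly(A)-selected, and between 62576504 and 70755739 reads per library had been assigned to genes.

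Each cytosolic ribosome carries nearly all ribosomal proteins in equal number, so cells make these proteins in near-equal amounts. Their mRNAs are short and abundant, and most begin at a C followed by a run of pyrimidines, the 5′ terminal oligopyrimidine (TOP) motif. Through this motif the kinase complex TORC1 (target of rapamycin complex 1) sets how many of the mRNAs are translated. In the brain these mRNAs are found in neurons and glia, and ribosomal proteins are also made in dendrites and axons.

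The annotated start of 63 members was found in the RefSeq table of promoters (GRCr8 assembly). A C at the annotated start followed by at least 4 more pyrimidines was present in 23 of these 63 members (36.5%). The same letters stood at the start of 723 of all 27457 promoters in the table (2.63%). When the run was allowed to begin within 5 bases of the annotated start, 38 members (60.3%) and 17.0% of all promoters had one. Windows of 30 bases are shown for members that the results below turn on, with the start and the pyrimidines that follow it in capitals. Each window covers 10 bases before the start and 20 bases from it, on the strand of the gene. Rpl10 and Rpl31 share with Rpl37a the longest run, at 12 bases. Rpl17 and Rpl39 are the members with the lowest ethanol-to-control ratios, Rplp0 is the base of the stalk that recruits elongation factors, and Rps15 and Rps26 line the mRNA channel. The paralogs Rpl3l and Rps27l are shown as members with no run at the annotated start. Most of the 63 members lack a run at that exact base, Rpl3 among them.
Rpl10 (chrX:157205840-157205869, plus strand): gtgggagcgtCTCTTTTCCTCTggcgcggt
Rpl31 (chr9:49143101-49143130, plus strand): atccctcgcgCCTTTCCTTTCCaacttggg
Rpl17 (chr18:70856266-70856295, plus strand): ttcgcgcttcCTCTTCCTgttagcggccag
Rpl39 (chrX:121195877-121195906, minus strand): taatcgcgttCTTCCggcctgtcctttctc
Rplp0 (chr12:46718371-46718400, minus strand): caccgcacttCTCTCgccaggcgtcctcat
Rps15 (chr7:10068096-10068125, minus strand): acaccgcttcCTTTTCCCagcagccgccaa
Rps26 (chr7:1643385-1643414, minus strand): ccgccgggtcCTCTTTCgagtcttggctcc
Rpl3l (chr10:14258436-14258465, plus strand): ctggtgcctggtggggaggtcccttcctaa
Rps27l (chr8:76443648-76443677, plus strand): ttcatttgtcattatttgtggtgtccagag

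Within the 300 bases from 250 before to 50 after the start, the letters CCGGAAG, the core of sites that ETS factors bind, were found on either strand in 19 of the 63 members (30.2%) and in 9.21% of all promoters. The GC-box letters GGGCGG were found in 36 members (57.1%) and 34.7% of all promoters, and GATGGC, part of the site of YY1, in 18 members (28.6%) and 14.6% of all promoters. The TATA-box letters TATAAA were found in 7 members (11.1%) and 14.3% of all promoters. These are matches of letters only, and overlaps between motifs were allowed. The 21 tested members with the run at the annotated start had a median level of 231 CPM per kb, against 219 CPM per kb for the 36 tested members with an entry and no run there. Those 36 include members whose run begins within 5 bases of the annotated start.

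Of the 78 members, 71 had enough reads to be tested. Rps6, the substrate of S6 kinase, Rps9, Rpl8, Rpl35a, Rpl37a and the stalk protein Rplp2 were at 0 counts in all 6 libraries, and Rps19 had 14 counts in total. A count of 0 allows up to 3 counts, 0.0424 to 0.0479 CPM in these libraries, and this limit covers counting error only. Reads that aligned to several places had been left out of the counts by the authors. A total of 815 other genes carry the symbol of a member with a pseudogene or copy suffix, and 76 of the 78 members have at least 1 such copy. A copy of Rpl37, Rpl37l1, held 62685 counts over the 6 libraries, and Rpl37 itself was not analysed here. For Rpl35a, Rpl37a and Rps19 the counting annotation and the gene table gave different chromosomes. Over the 6 libraries, named copies of Rpl35a held 2872 counts, those of Rps19 2416 and those of Rpl37a 490. Copies of Rpl8 held 165 counts, of Rps9 137, of Rps6 101 and of Rplp2 69. Whether reads of the 7 untested members had aligned to copies was not tested. No statement on the expression of these 7 genes is made.

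Ribosomal protein mRNAs were among the most abundant of the tissue. Levels between genes are given in CPM (counts scaled to library size and between libraries by TMM) per kb of exon. The median of the 71 tested members was 231 CPM per kb, at percentile 98.7 of all 18141 genes tested, whose median was 5.18 CPM per kb. Above 100 CPM per kb lay 60 of the 71 members. Rps29, a small zinc-binding protein of the small subunit, had the highest level at 617 CPM per kb. It was followed by Rpl21 at 591, Rpl35 at 487, Rpl41 at 483 and Rps21 at 420 CPM per kb. For 67 of 70 neighbouring pairs in this order, the ranges of mean ± SD over the 6 libraries overlapped. This SD includes the rise and fall that members shared between libraries, described below. The overlap therefore does not show whether neighbours differ within a library.

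Among the 5 lowest tested members were 2 paralogs. Rpl3l, the striated-muscle paralog of Rpl3, had 0.198 CPM per kb and between 10 and 29 counts per library. Rpl3, which lies next to the site of peptide bond formation, had 349 CPM per kb. Rps27l, a p53-responsive paralog of Rps27, had 12.2 ± 2.57 CPM per kb in the controls and 11.9 ± 2.41 CPM per kb after ethanol (SD, n = 3 libraries each). Rpl39, which lines the peptide exit tunnel, had 8.52 CPM per kb, and 9.81 CPM per kb with the reads of its 12 named copies added. Reads that aligned to both a member and a copy were not counted, so both values can be too low. The same limit holds for the levels of the other members, and its size was not tested. Rpl10a, part of the stalk that releases the outgoing tRNA, had 48.2 CPM per kb, and Rpl36a 49.4 CPM per kb. Across the 71 members, the Spearman correlation of the level was 0.22 with the number of named copies and -0.15 with exon length. These are correlations across genes, which are not independent replicates.

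**Figure D1:**
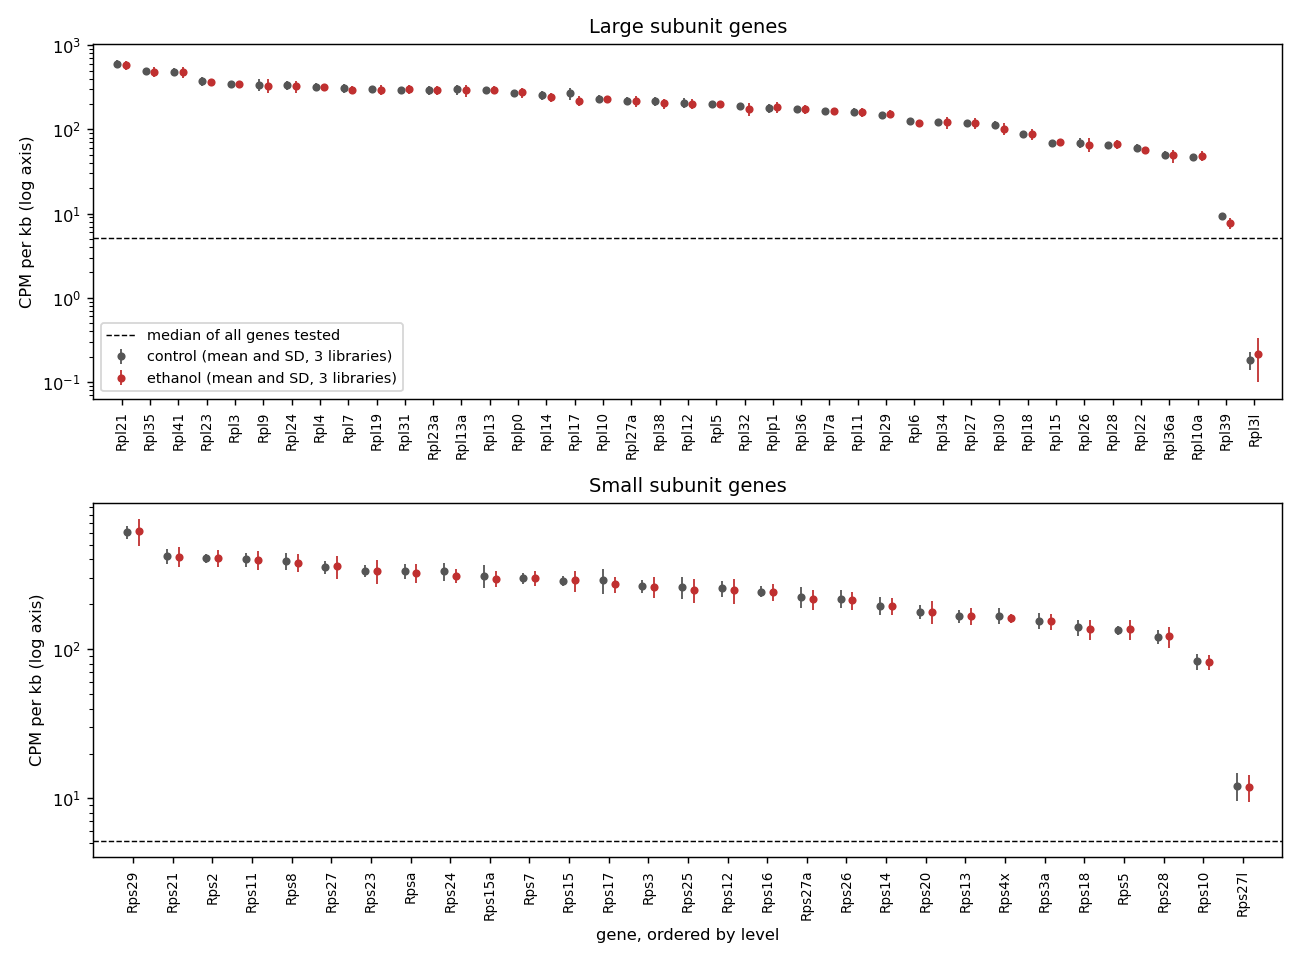
Level of 70 of the 71 tested ribosomal protein genes in CPM per kb of exon (log axis), by subunit and ordered by level. Points are means and bars SDs over the 3 libraries of each group. Apart from Rpl3l, all genes shown lie above the dashed line, the median of all genes tested (5.18 CPM per kb), and the control and ethanol points of a gene lie close together.

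Nearly all members shared a rise and fall from library to library that cut across the treatment. Reads of members made up 1.20%, 1.00% and 1.22% of assigned reads in control libraries 1 to 3 and 1.03%, 0.990% and 1.29% in ethanol libraries 1 to 3. Relative to each gene's own mean over the 6 libraries, the median member stood at 0.09, -0.17 and 0.12 log2 CPM in the controls and at -0.10, -0.13 and 0.20 log2 CPM in the ethanol libraries. Control 2, ethanol 1 and ethanol 2 were thus low, control 1, control 3 and ethanol 3 were high, and each group held libraries of both kinds. The lowest and the highest library differed 1.29-fold.

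Almost every member followed this pattern. In control 3, 71 of 71 tested members were above their own mean, in ethanol 3 70 and in control 1 63. In control 2, ethanol 1 and ethanol 2, 1 member each was above its mean. Ethanol 3 was the highest library for 57 members, and control 2 the lowest for 44. The mean pairwise correlation of log2 CPM over the 6 libraries was 0.86 among all members, 0.80 among the large subunit genes and 0.93 among the small subunit genes, beside 0.00 among all genes tested. With the median of the members, 60 of 71 correlated above 0.9, all 29 tested small subunit genes included, and 4.24% of all genes tested did so. The 6 libraries are few, all genes share the same libraries and scaling, and the median contains the members, so these values are descriptions.

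**Figure D2:**
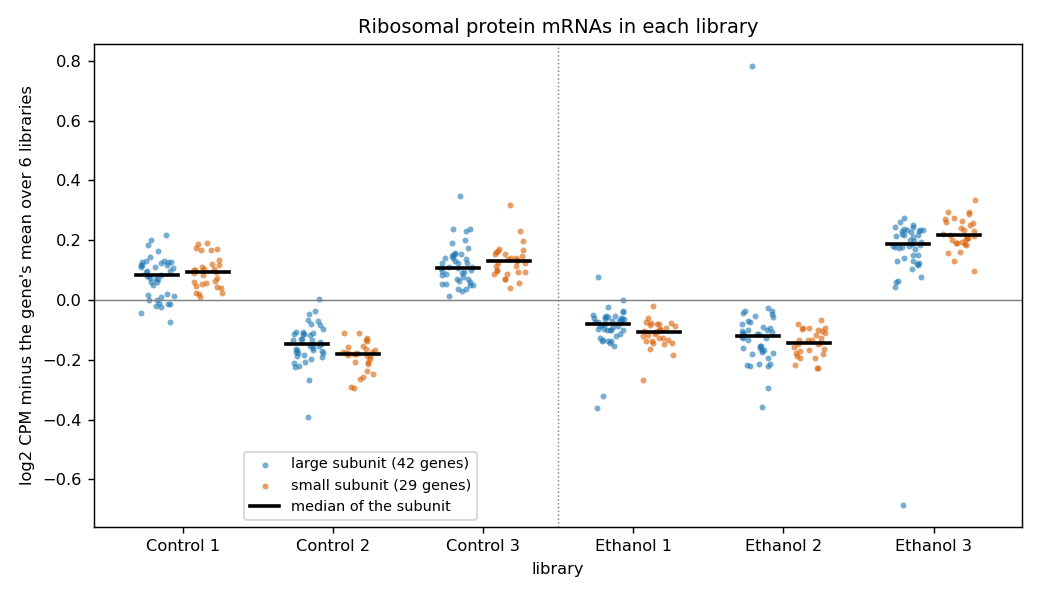
Level of each tested member in each library as log2 CPM minus the gene's mean over the 6 libraries. Points are genes, in blue for the large and in orange for the small subunit, and black lines are medians. Both subunits are low in control 2, ethanol 1 and ethanol 2 and high in the other libraries; the distant points in ethanol 2 and ethanol 3 are Rpl3l.

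The members that followed the pattern least were Rpl3l, with a correlation of -0.40 to the median of the members, Rpl10a at 0.66, Rpl17 at 0.72, Rpl39 at 0.75 and Rpl30 at 0.79. The median member other than Rpl3l differed 1.31-fold between its highest and lowest library. Rpl3 was the steadiest at 1.14-fold, with 472, 414 and 460 CPM in the controls and 441, 437 and 468 CPM after ethanol. Rpl17, another protein of the exit tunnel, varied most among the members other than Rpl3l, at 1.63-fold. Longer members tended to vary less, with a Spearman correlation of -0.43 between exon length and range over 70 members, across genes. Members with and without the pyrimidine run at the annotated start had the same median range of 1.31-fold. Those without it again include members whose run begins within 5 bases of that start.

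Related gene groups moved less between libraries. The median of 16 elongation factor and other genes with TOP mRNAs ranged over 1.11-fold, that of 32 initiation factors over 1.06-fold, and that of 40 genes of ribosome biogenesis and RNA polymerase I over 1.08-fold. The 72 mitochondrial ribosomal proteins ranged over 1.08-fold, the 81 nuclear-encoded subunits of the respiratory chain over 1.14-fold, and the 662 other genes of at most 700 exon bases over 1.15-fold. The median correlation with the members was 0.63 for the elongation factor group, 0.70 for the respiratory chain and 0.41 for the short genes. For initiation factors it was 0.00 and for ribosome biogenesis -0.50. Tpt1, a TOP mRNA encoding a translationally controlled tumor protein, had 673, 528 and 678 CPM in the controls and 593, 570 and 674 CPM after ethanol, so that its low libraries were those of the members. Eef1a1, the factor that delivers aminoacyl-tRNA, had 1075, 1027 and 1103 CPM in the controls and 1063, 1083 and 1171 CPM after ethanol.

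Markers of cell types moved with the members to different degrees. All 9 oligodendrocyte markers, Mbp among them, correlated with the members by 0.68 or more (median 0.77). Their median stood at 0.48, -0.66 and -0.07 log2 CPM relative to the mean in the controls and at -0.41, 0.02 and 0.51 after ethanol, a range of 2.24-fold, and their summed level lay between 3794 and 8857 CPM in the controls and between 4634 and 10228 CPM after ethanol. The 9 neuron markers had a median correlation of -0.75 but ranged from -0.97 to 0.56, so they did not run opposite to the members as a class. Their mean pairwise correlation was 0.17, beside 0.96 among the oligodendrocyte markers. The summed level of the neuron markers lay between 5382 and 6255 CPM in the controls and between 5142 and 6921 CPM after ethanol. Astrocyte markers had a median correlation of 0.64, microglia markers of 0.56, and endothelial and mural markers of 0.46. The part of cell composition in the pattern of the members was not tested, and in bulk tissue fewer cells of a type and less RNA per cell cannot be told apart.

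**Figure D3:**
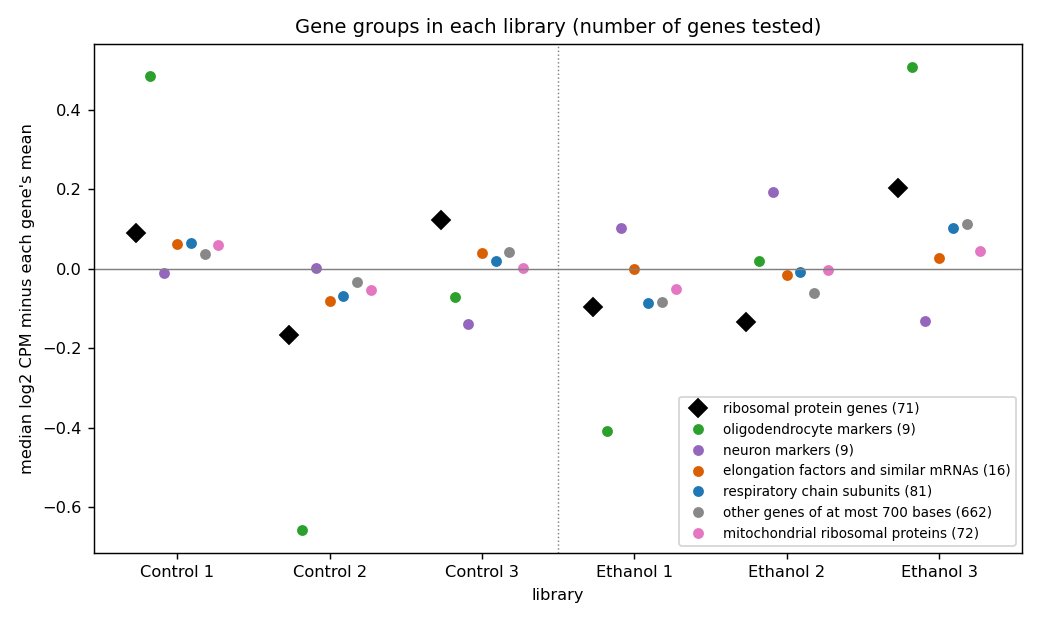
Median of each gene group in each library, as log2 CPM minus each gene's mean over the 6 libraries, with the number of genes tested in the legend. Black diamonds are the ribosomal protein genes, which range more widely than the other translation and mitochondrial groups, while the oligodendrocyte markers range from -0.66 to 0.51.

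Choroid plexus markers differed between the dissected samples on a much larger scale. Ttr, transthyretin, stood at 462, 996 and 817 CPM in the controls and at 5.42, 4.34 and 425 CPM after ethanol. The summed level of the 11 tested markers was between 539 and 1167 CPM in the controls and was 15.7, 17.0 and 501 CPM in the ethanol libraries, with Otx2 not tested for low counts. All 11 had lower values after ethanol, 6 of them with an unadjusted p below 0.05. Of 10 markers of motile cilia, 10 were lower and 7 had an unadjusted p below 0.05. Among all genes tested, 2.58% were lower at that threshold. No gene of either list passed the adjusted test. The median correlation of the choroid plexus markers with the members was 0.39, and their part in the members' values was not tested.

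Whether acute ethanol shifted ribosomal protein mRNAs was asked with edgeR's quasi-likelihood test over all genes. No member was called different. At an adjusted p below 0.2, the study's own threshold, 0 of 71 members and 0 of 18141 genes (0% of all genes tested) were called, and the smallest adjusted p over all genes was 0.818. The paper, with its own analysis, did report differentially expressed genes at this threshold. At an unadjusted p below 0.05, 0 members were called, beside 1.57% of all genes tested as higher and 2.58% as lower. The smallest unadjusted p of a member was 0.074, for Rpl17 (edgeR). The likelihood ratio test of edgeR called 77 genes, DESeq2 74 and limma-voom 0 at an adjusted p below 0.2, with 0 members in each. The groups overlapped for all 71 members, while 5.19% of all genes tested were lower and 3.65% higher after ethanol in all 3 libraries than in any control.

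The sizes of the differences were small. The median log2 fold change of the members was -0.02, beside 0.01 for all genes tested, and it was -0.02 both for the 42 large and for the 29 small subunit genes. The value was negative for 50 members and positive for 21, and for 67 members it lay within 0.1 of 0. Standard errors ranged from 0.07 to 0.43 with a median of 0.12, so a difference of the size of the median could not be detected with these libraries. The median depended on single libraries. Without ethanol 3 it was -0.13 with 70 members negative, without control 2 -0.10 with 67 negative, without ethanol 2 0.05 with 60 positive and without control 3 0.03 with 60 positive. Without control 1 and without ethanol 1 it was 0.01 and 0.02. With scaling by library size alone, 60 members were negative and the median was -0.04, beside -0.02 for all genes.

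**Figure D4:**
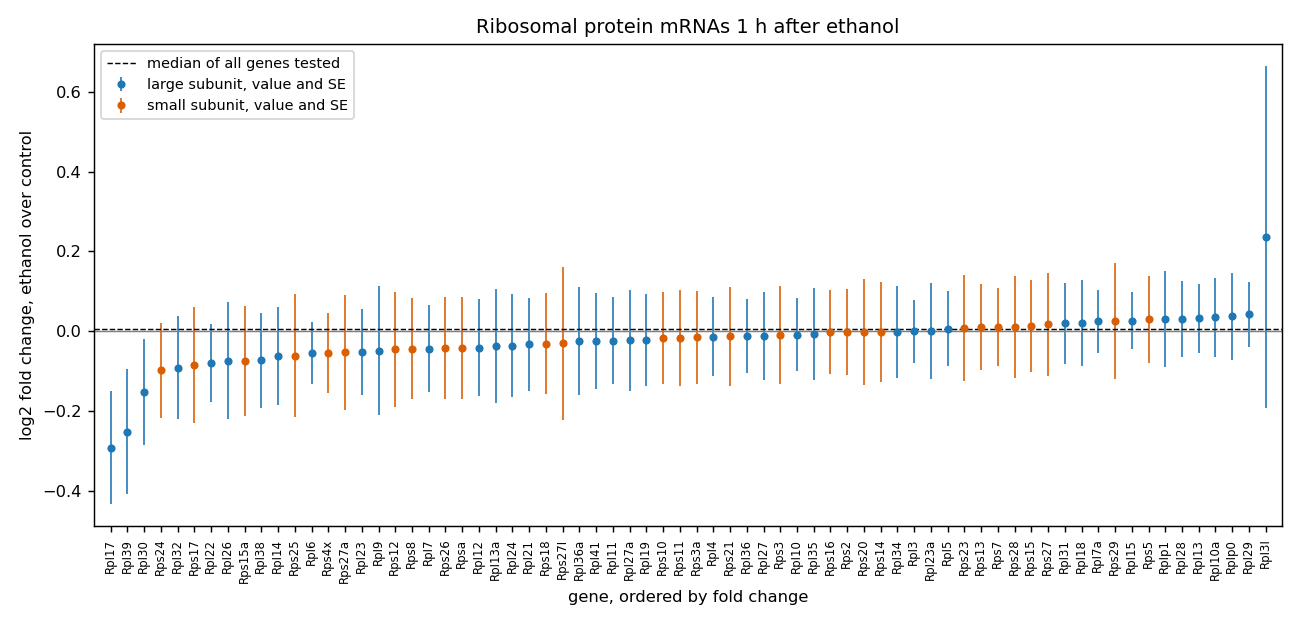
Log2 fold change (ethanol over control) of 70 of the 71 tested members with its standard error, ordered by value, in blue for the large and in orange for the small subunit. The dashed line is the median of all genes tested. The values run from -0.29 for Rpl17 to 0.24 for Rpl3l, and no member had an adjusted p below 0.2.

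Grouped by role in the ribosome, the members had median values near 0. Of the P stalk, which recruits the elongation factors, Rplp0 had 295, 269.8 and 313 CPM in the controls and 269, 286 and 346 CPM after ethanol (log2 fold change 0.04 ± 0.11 SE). Rplp1 had 90.3, 77.5 and 99.6 CPM in the controls and 86.2, 81.6 and 105 CPM after ethanol (0.03 ± 0.12 SE). In both genes ethanol 3 was the highest library, and the groups overlapped. The 7 proteins around the peptidyl transferase center and the tRNA sites, Rpl3, Rpl4, Rpl5, Rpl10, Rpl10a, Rpl11 and Rpl36a, had values from -0.03 to 0.03 with a median of -0.01. Rpl5 and Rpl11, which bind the 5S rRNA and can bind Mdm2, were at 0.01 ± 0.09 and -0.02 ± 0.11 (SE).

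The 7 proteins of the exit tunnel, Rpl17, Rpl19, Rpl23a, Rpl26, Rpl31, Rpl35 and Rpl39, had values from -0.29 to 0.02 with a median of -0.02. On the small subunit, the 7 tested proteins of the mRNA entry, exit and decoding sites, Rps2, Rps3, Rps15, Rps23, Rps26, Rps28 and Rpsa, had values from -0.04 to 0.01 with a median of 0.00. Rps2 had 404, 354 and 392 CPM in the controls and 376, 336 and 437 CPM after ethanol. Rps27a, made as a fusion with ubiquitin, had 268, 201 and 266 CPM in the controls and 227, 205 and 277 CPM after ethanol (-0.05 ± 0.14 SE). Its libraries of both groups fell into the same low and high levels as those of the other members. Among the paralogs, Rps4x, the X-linked form of Rps4, was at -0.05 ± 0.10 and Rps27l at -0.03 ± 0.19 (SE).

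The members with the lowest and the highest ratios were read off by rank. Rpl17 (chr18:70969733-70972839, Rnor_6.0) had 171, 134 and 188 CPM in the controls and 115, 136 and 152 CPM after ethanol (log2 fold change -0.29 ± 0.14 SE). Only control 2 lay within the range of the ethanol libraries. Rpl39 (chrX:123705241-123707257) had 2.85, 2.44 and 2.95 CPM in the controls and 1.99, 2.22 and 2.69 CPM after ethanol (-0.25 ± 0.16 SE), with ethanol 3 above control 2. Rpl30 (chr7:73213538-73216431), an RNA-binding protein that represses splicing of its own transcript in yeast, had 56.8, 45.7 and 55.1 CPM in the controls and 49.4, 38.6 and 53.7 CPM after ethanol (-0.15 ± 0.13 SE). Rps24 and Rpl32 followed at -0.10 ± 0.12 and -0.09 ± 0.13 (SE). Among the highest stood Rpl3l at 0.24 ± 0.43, Rpl29 at 0.04 ± 0.08, Rplp0 at 0.04 ± 0.11 and Rpl10a at 0.03 ± 0.10 (SE). None of these values had an unadjusted p below 0.05 by the edgeR test.

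Because nearly all members rose and fell together, their levels were also expressed relative to the median member of the same library, a scaling chosen after the data were seen. On this scale 2 of 71 members had groups that did not overlap, both lower after ethanol, beside 2.52% of all genes tested that were lower and 1.81% that were higher. The share of members was close to that of all genes, so the 2 genes are described only. Rpl17 stood at 0.22, 0.06 and 0.24 in the controls and at -0.20, 0.04 and -0.13 log2 units after ethanol, a difference of -0.27. Rpl39 stood at -5.69, -5.73 and -5.75 in the controls and at -6.05, -5.90 and -5.95 log2 units after ethanol, a difference of -0.25. For both, the 2-sided exact permutation p was 0.1, the smallest that 3 against 3 libraries allow. Any gene whose groups do not overlap has this p, and the 2 genes were picked for that, so it adds no support.

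These members were also those with the largest share of reads on named copies. Reads of copies made up 13.1% of own and copy reads for Rpl39, 5.59% for Rpl17 and 5.39% for Rpl30, and 5% or less for the other 68 tested members. With the reads of copies added, Rpl17 stayed lower after ethanol in all 3 libraries, at a difference of -0.23. The separation was narrow, with control 2 at 0.126 and ethanol 2 at 0.108 log2 units, beside an SD within groups of 0.095. The groups of Rpl39 then overlapped, and its SD within groups rose from 0.06 to 0.20 log2 units. For Rpl30 the difference moved from -0.15 to -0.06 and the SD within groups from 0.14 to 0.07 log2 units. The largest of the copies of Rpl17, Rpl17-ps16 on chromosome 10, had 9.45, 6.38 and 5.80 CPM in the controls and 10.5, 6.98 and 13.3 CPM after ethanol. Whether reads had moved between a member and its copies was not tested.

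**Figure D5:**
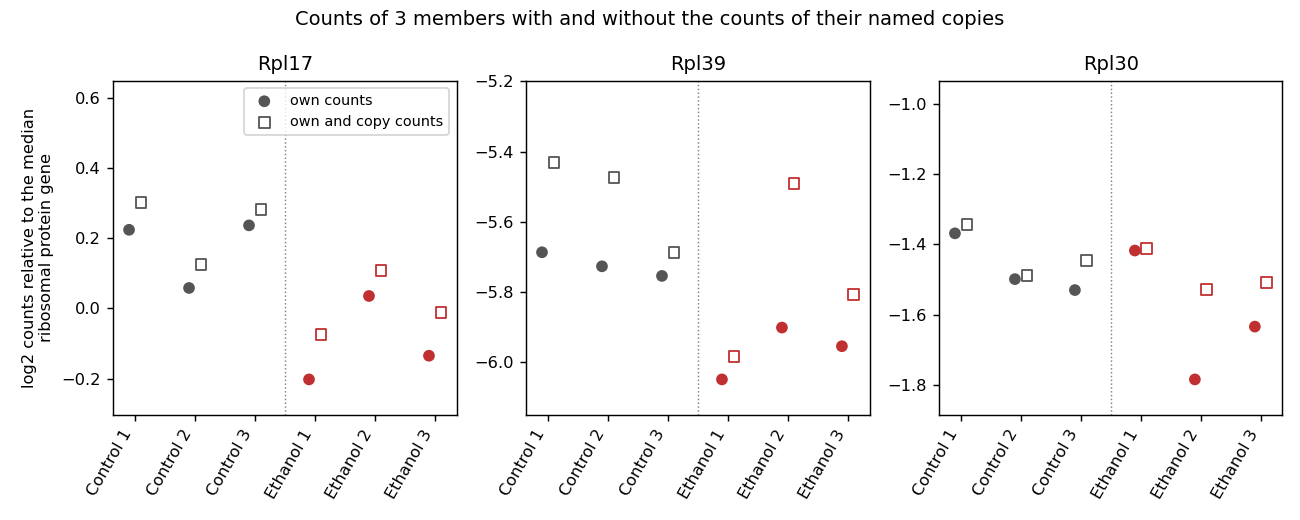
Counts of Rpl17, Rpl39 and Rpl30 in each library, as log2 units relative to the median ribosomal protein gene of that library, from own counts (circles) and with the counts of named copies added (squares), in grey for control and red for ethanol. The groups of Rpl17 stay apart with copies added, those of Rpl39 then overlap, and the values of Rpl30 draw together.

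Ribosome proteins and paralogs that other naming keeps out of the rule had log2 fold changes from -0.10 for Rpl22l1 to 0.10 for Rps4y2, and none had an unadjusted p below 0.05 by edgeR's test. Fau, which encodes a ribosomal protein fused to a ubiquitin-like protein, had 244 CPM per kb and a log2 fold change of 0.00 ± 0.11 (SE). Rack1, a scaffold at the head of the small subunit, was at 162 CPM per kb and 0.02 ± 0.08 (SE). The paralogs Rpl26l1 and Rps4y2 had lower levels, 2.20 and 4.48 CPM per kb. The median log2 fold change of the 6 tested genes of this kind was 0.02.

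Among genes that make, use or control ribosomes, none passed the adjusted test. The elongation factor group had a median of -0.02 with 6 positive and 10 negative values, and none of its 16 genes had an unadjusted p below 0.05. Initiation factors had a median of 0.00 with 17 positive and 15 negative values and none below 0.05. Of 40 tested genes of ribosome biogenesis and RNA polymerase I, 24 were negative with a median of -0.03. At an unadjusted p below 0.05, 2.58% of all genes tested were lower, and 1 of these 40 genes was. This was Mdn1, an ATPase that remodels large subunit precursors, at 41.2 ± 1.01 CPM in the controls and 35.6 ± 4.07 CPM after ethanol (SD, n = 3 libraries each, edgeR log2 fold change -0.21 ± 0.09 SE, unadjusted p = 0.043). The groups of 5 of the 40 genes did not overlap, all lower after ethanol, beside 5.19% of all genes.

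Of 22 genes of the TOR pathway and translation control, 16 had positive values with a median of 0.02. In this list 2 genes had an unadjusted p below 0.05, both higher, beside 1.57% of all genes tested as higher. Ddit4, a stress-responsive inhibitor of TORC1 also known as Redd1, had 61.1, 60.6 and 56.8 CPM in the controls and 67.8, 84.8 and 90.5 CPM after ethanol. Every ethanol library lay above every control, as it did for 3.65% of all genes tested. The edgeR log2 fold change was 0.44 ± 0.10 SE, with an unadjusted p of 0.0030 and an adjusted p of 0.85. Sesn1, a sestrin that restrains TORC1 when amino acids are scarce, had 57.4 ± 3.30 CPM in the controls and 67.2 ± 3.91 CPM after ethanol (SD, n = 3 libraries each, edgeR log2 fold change 0.23 ± 0.07 SE, unadjusted p = 0.012). Both differences failed the correction for all genes tested. The translation of the TOP mRNAs was not measured in these libraries.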

How the data were processed

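Poly(A)-selected, strand-specific libraries of rat amygdala were read from 1 end (100 nt) on 3 lanes. Raw, unnormalized counts of each gene were deposited by the authors, and per the file headers these came from featureCounts on Rnor_6.0 exons with the reverse-strand setting (2), and multi-mapped reads were not counted. The submitters' processing notes list FastQC 0.11.8, STAR 2.7.0f, Subread 1.6.3 and R 3.6.2. Symbols were matched by gene identifier to a RefSeq gene table (GRCr8) for 29322 of 38445 genes. The members and gene lists were chosen with earlier results of these data known.

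Statistics were run in edgeR 4.0.16 (R 4.3.3) with filterByExpr (minimum 10 counts, 15 in total), which left 18141 genes, TMM scaling (factors 0.976 to 1.01) and the quasi-likelihood test of ethanol against control without a block, with Benjamini-Hochberg adjustment over all genes tested. Standard errors were obtained by dividing the absolute log2 fold change by the root of F. Log2 CPM carries a prior count of 2. The printed levels relative to the median member, with and without copies, were taken from counts. On that scale, the numbers of members and of all genes without overlap, and the permutation p, came from log2 CPM. Alternatives were the likelihood ratio test, other scalings, no filter, the replicate number as a block, leaving out each library, limma 3.58.1 (voom) and DESeq2 1.42.0. On simulated data with 200 of 18141 genes changed by a log2 fold of 1, 97% were called, as were 52 unchanged genes. Whether libraries came from separate litters or days is not given in the sources used here, so p-values measure the spread between pooled libraries.

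Genes were named by rule: members with an unadjusted p below 0.05 (none), the 5 highest and 5 lowest by log2 fold change and by CPM per kb, members of the lists by role, members with under 10 counts in every library, and, outside the members, the genes of a list with an unadjusted p below 0.05 and the 2 with the highest level, of which those that a result turned on are given. The values of some genes that this rule names are not reported here. Copies were matched by symbol pattern, because no descriptions were at hand. Motif matches came from 300-base promoter entries.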

Additional observations from a re-analysis of the deposited data

How the results depend on the processing

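No member passed an adjusted p below 0.2 under any alternative run. Over all genes, the count at an adjusted p below 0.2 was 0 with edgeR's quasi-likelihood test, 77 with its likelihood ratio test and 74 with DESeq2, and from 0 to 83 when 1 library was left out, with 83 without ethanol 3 and 4 without ethanol 1. Members lower after ethanol at an unadjusted p below 0.05 numbered 0 in the quasi-likelihood test, 1 with no filter on low counts, 1 with DESeq2, 2 with the replicate block, and 0 to 2 when 1 library was left out, with 1 without control 2 and 2 without ethanol 3. The replicate numbers do not pair the libraries by any label. The deviations of same-numbered libraries correlated by 0.0264, 0.388 and 0.211, and not every library correlated best with its own number, control 1 and ethanol 3 reaching 0.305. When 1 library was left out, the log2 fold change ranged from -0.0826 to 0.108 for Rpl10a, from -0.0450 to 0.0934 for Rpl29, from -0.232 to 0.0229 for Rpl32, from -0.248 to 0.566 for Rpl3l and from -0.0766 to 0.111 for Rplp0. The cause was not tested. The median of the choroid plexus markers was -3.81 without ethanol 3 and -1.80 with all libraries, and the level of Rpl39 was 9.81 CPM per kb with copies added. The median over all genes moved between -0.02 and 0.01. The other 489 values kept their direction and their side of the threshold, or moved by less than the spread between replicates. With 3 pooled libraries in each group, the median standard error of a member was 0.12 log2 units. Depth limits Rpl3l, with 10 to 29 counts per library, and 7 members lack the reads to be judged.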

Other observations

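The 815 genes named as copies of the 78 members held few reads in all, 0.653% to 0.846% of the members' reads per library. Rpl37l1, with 62685 counts over the 6 libraries, is not among them, because Rpl37 is not a member. Of these copies, 368 had 0 counts in all 6 libraries and 54 passed the filter. Some of these 54 differed between libraries far more than their parents, and were picked out after their values were seen. Rps2-ps2, a pseudogene on chromosome 20 (chr20:3134711-3135439, Rnor_6.0), had 241, 296 and 0 counts in the controls and 260, 308 and 2 counts after ethanol. It was thus at or near 0 in control 3 and ethanol 3 and present in the other 4 libraries, while its parent Rps2 ranged from 336 to 437 CPM. Rps2-ps36 on chromosome 10 had 672, 193 and 833 counts in the controls and 181, 816 and 585 counts after ethanol.

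Rpl30l2 (chr10:38024460-38024945) had 62, 23 and 208 counts in the controls and 11, 481 and 341 counts after ethanol, a 37.2-fold range in CPM. Its high libraries, control 3, ethanol 2 and ethanol 3, were those in which Rpl30 was lowest relative to the median member. Rps27a-ps1 on chromosome 5 had 139, 55 and 74 counts in the controls and 30, 59 and 60 counts after ethanol. No copy had an adjusted p below 0.2 between the groups by edgeR's quasi-likelihood test.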
